A study of Homo sapiens with 6 samples.

Results

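The genes examined were the 4 teneurins (TENM1, TENM2, TENM3, TENM4), the 3 latrophilins (ADGRL1, ADGRL2, ADGRL3), the leucine-rich repeat proteins FLRT2 and FLRT3, and the netrin receptor gene UNC5B, 10 of the 47432 genes in the deposited tables. They were chosen by name because TENM2 had far fewer reads after NFKBIZ knockdown, to ask whether its relatives and binding partners changed with it. The values that chose TENM2 are therefore given as a description. RNA-seq was performed on LOX-IMVI, an established human melanoma cell line kept in RPMI-1640 medium with serum. All cells carried the lentiviral vector pLKO.1 and had been selected with puromycin. The shCtrl group carried a control construct, and the shNFKBIZ group a short hairpin RNA against NFKBIZ, which encodes IκBζ, a nuclear protein that modifies transcription through NF-κB and other factors. Each group had 3 libraries, and only 1 hairpin against NFKBIZ was used, so that an effect of IκBζ loss and any other effect of that hairpin cannot be told apart.

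The libraries held between 22264473 and 24624839 total exon reads. NFKBIZ itself had 1519, 1629 and 1674 exon reads under shCtrl and 474, 477 and 468 under shNFKBIZ. Replicates correlated at 0.992 to 0.993 in log2 CPM (counts scaled to library size), and libraries of different groups at 0.967 to 0.970. Of the 8 melanocyte lineage markers examined, 7 were below 1 TPM (a level scaled to gene length and library) in every library, and MLANA, SOX10 and S100B had no read, whereas 5 of 6 markers of dedifferentiated melanoma (AXL, EGFR, SOX9, TEAD1 and JUN, but not NGFR) exceeded 1 TPM and summed to 802 to 827 TPM in shCtrl and 940 to 960 TPM in shNFKBIZ cells. In the dedifferentiated list TEAD1 was lower in shNFKBIZ cells (94.7 to 101 against 128 to 132 TPM in shCtrl), whereas AXL, EGFR, SOX9 and JUN were higher. The summed level of the melanocyte markers, mostly MITF, was 3.19 to 4.23 TPM in shCtrl and 1.79 to 2.62 TPM in shNFKBIZ cells. Of 4 immune cell markers, CD3E had no read and PTPRC did not exceed 0.0113 TPM. The summed immune level, nearly all of it CD68, was 96.7 to 100 TPM in shCtrl and 198 to 199 TPM in shNFKBIZ cells. Of the fibroblast list, COL1A1 was 29.3 to 32.3 TPM in shCtrl and 7.67 to 10.3 TPM in shNFKBIZ cells, PDGFRA 2.38 to 2.98 TPM in shCtrl and at least 11.3 TPM in shNFKBIZ cells, and the sum 32.2 to 35.0 and 19.2 to 21.6 TPM. In the same order, the keratinocyte list, mostly KRT10, summed to 60.1 to 72.1 and 73.1 to 80.7 TPM, and the neuron list, mostly SNAP25, to 1.2 to 1.52 and 2.07 to 2.22 TPM, while the endothelial list stayed at or below 0.102 TPM. The part of these shifts in the results below was not tested.

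Teneurins are large transmembrane proteins that project a long extracellular region with EGF-like repeats and a barrel-shaped domain, and they hold neurons together at synapses and guide growing axons. Latrophilins are adhesion G protein-coupled receptors that bind teneurins on the neighbouring cell, and they bind FLRT proteins through another part of the same extracellular region. FLRT proteins in turn bind UNC5 receptors, which also receive netrin. The families are best known from the nervous system, but several members are also transcribed in other tissues and in tumour cells.

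Most of the levels belonged to a few genes. In shCtrl cells the highest member was ADGRL2 with 18.2 ± 0.601 TPM (SD, n = 3). TENM3 followed with 15.3 ± 0.375 TPM (SD, n = 3). ADGRL1 had 8.01 ± 0.633 TPM and FLRT2 had 7.89 ± 0.539 TPM (SD, n = 3 each), and the ranges of these 2 genes overlapped. TENM4 stood at 3.93 ± 0.107 TPM (SD, n = 3). TENM2 and TENM1 were near 1 TPM, with 1.02 ± 0.0568 and 0.868 ± 0.0557 TPM (SD, n = 3 each). UNC5B had 0.358 ± 0.0346 TPM and ADGRL3 had 0.156 ± 0.0243 TPM (SD, n = 3 each). FLRT3 had no read in any shCtrl library and 0, 1 and 1 exon reads in shNFKBIZ cells, which is under the floor of 3 reads in each library, so no fold is given. Apart from ADGRL1 and FLRT2, neighbours in this order did not overlap between their 3 libraries.

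In shNFKBIZ cells the order changed for TENM2 and for FLRT2 and ADGRL1. TENM2 moved from sixth to ninth, below UNC5B and ADGRL3, at 0.0669 ± 0.0047 TPM (SD, n = 3). FLRT2, at 10.6 ± 0.403 TPM (SD, n = 3), stood above ADGRL1 without overlap. ADGRL1, at 4.33 ± 0.141 TPM (SD, n = 3), now overlapped its next neighbour TENM4, at 4.25 ± 0.159 TPM (SD, n = 3).

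**Figure D1:**
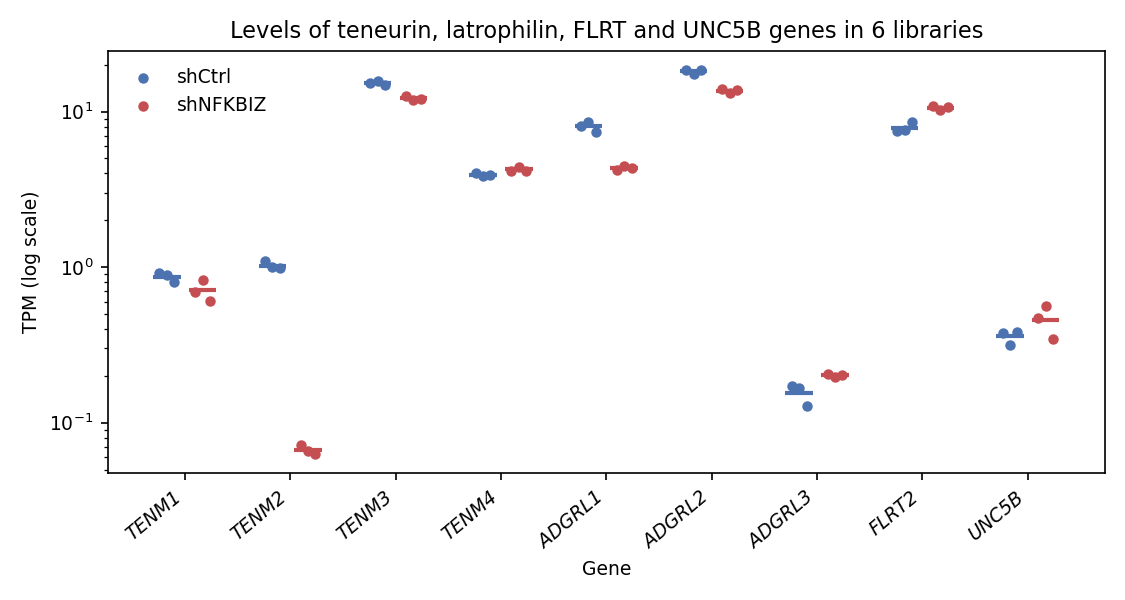
TPM (log scale) of 9 of the 10 genes in each library, with 3 points and a line at the mean per group; FLRT3, listed at 0 in 4 of the 6 libraries, is left out. TENM2 lies between 0.985 and 1.09 TPM in shCtrl and between 0.0632 and 0.0722 TPM in shNFKBIZ cells, and every other gene is less far apart between the groups.

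TENM2 (chromosome 5, 166979029 to 168264157, plus strand, hg38) encodes a teneurin that binds latrophilins across the synaptic cleft. Its exon reads numbered 144, 136 and 121 in shCtrl and 9, 8 and 8 in shNFKBIZ cells. Every shCtrl library thus held more than every shNFKBIZ library, with sums of 401 and 25 reads. The log2 fold change (hereafter log2 change, always shNFKBIZ minus shCtrl) was -4.00 (SE 0.198), or 6.27% of the shCtrl level, and was the 9th lowest of the 13843 genes tested. This is the value for which the gene was chosen, and it carries no test here. In such bulk RNA, fewer cells with the transcript and less transcript per cell cannot be told apart.

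Exon reads that span an exon-exon junction gave the same picture, with 19, 23 and 23 for TENM2 in shCtrl and 3, 1 and 2 in shNFKBIZ cells. Intron reads can come from RNA that is not yet spliced, that retains an intron or that belongs to an overlapping gene. Those of TENM2 numbered 45, 51 and 50 in shCtrl and 6, 5 and 4 in shNFKBIZ cells. Their log2 change was -3.34 (SE 0.292). The exon and intron values of TENM2 differed by -0.60 (SE 0.482) on the log2 scale, a difference close to its own error.

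None of the other teneurins changed on this scale in exon reads. Across the table, 8.96% of the 13843 genes were past the threshold, which asked for an adjusted P of at most 0.05 and a change of 2-fold or more (edgeR quasi-likelihood test, Benjamini-Hochberg adjustment over the genes tested). The share past it towards lower reads was 5.12%. Scaling by library size alone left the number past it in either direction nearly as it was, 1252 against 1241 genes. It moved those higher from 532 to 668, so that fewer were lower. At the adjusted P alone, 32.8% of genes were lower and 32.5% were higher, so that a small change was the common case. Of the 10 genes, 9 passed the filter on low counts. Of the 8 of these other than TENM2, 0 were past the threshold, and 4 were lower and 1 was higher at the adjusted P alone. Since the contrast that named the genes is the one counted, nothing is read from these counts. The CPM of the 2 groups did not overlap for 6 of these 8 genes, beside 68.7% of all genes tested.

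TENM3 (chromosome 4, 182143987 to 182803024, plus strand), the teneurin known for matching neurons of the visual pathway and hippocampus, had 1139, 1210 and 1034 exon reads under shCtrl and 885, 812 and 854 under shNFKBIZ. The groups did not overlap. It fell to 74.7% of the shCtrl level, with a log2 change of -0.42 (SE 0.0522, adjusted P 3.55e-07). Junction reads of TENM3 were 217, 233 and 219 against 165, 147 and 142.

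TENM4 (chromosome 11, 78652829 to 79441030, minus strand), a teneurin required for myelination and linked to inherited tremor, had 413, 405 and 369 exon reads under shCtrl and 398, 418 and 407 under shNFKBIZ. The groups overlapped, and the log2 change was 0.03 (SE 0.0669, adjusted P 0.717). In TPM, which was not rescaled by the normalisation factors of the test, TENM4 lay at 3.84 to 4.05 in shCtrl and 4.14 to 4.43 in shNFKBIZ cells without overlap.

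TENM1 (chromosome X, 124375903 to 125204312, minus strand), whose intracellular part can move to the nucleus, was the other weakly transcribed teneurin. Its exon reads were 77, 77 and 63 in shCtrl and 55, 64 and 49 in shNFKBIZ cells, so that the second shNFKBIZ library exceeded the third shCtrl library. In TPM these libraries also overlapped, with 0.821 in the shNFKBIZ and 0.806 in the shCtrl library. Only the CPM scaled by the normalisation factors of the test did not overlap between the groups. The log2 change was -0.38 (SE 0.164, adjusted P 0.0472). This call was lost in 8 of 15 alternatives, among them DESeq2 (adjusted P 0.166). It was also lost without shCtrl replicate 1 (adjusted P 0.131), shCtrl replicate 2 (0.102), shNFKBIZ replicate 1 (0.0913) or shNFKBIZ replicate 3 (0.177).

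TENM3 supplied most of the teneurin level, and TENM2 little of it. TENM2 made up 4.84% ± 0.237 of the summed teneurin TPM in shCtrl and 0.39% ± 0.0195 in shNFKBIZ cells (SD, n = 3 each). TENM3 accounted for 72.4% ± 0.835 and 70.7% ± 1.6 (SD, n = 3 each). The share of TENM4 was 18.6% ± 0.583 and 24.8% ± 1.13 (SD, n = 3 each), the gain standing beside lower levels of TENM2 and TENM3. The sum was 21.1 ± 0.424 TPM in shCtrl and 17.1 ± 0.35 TPM in shNFKBIZ cells (SD, n = 3 each).

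**Figure D2:**
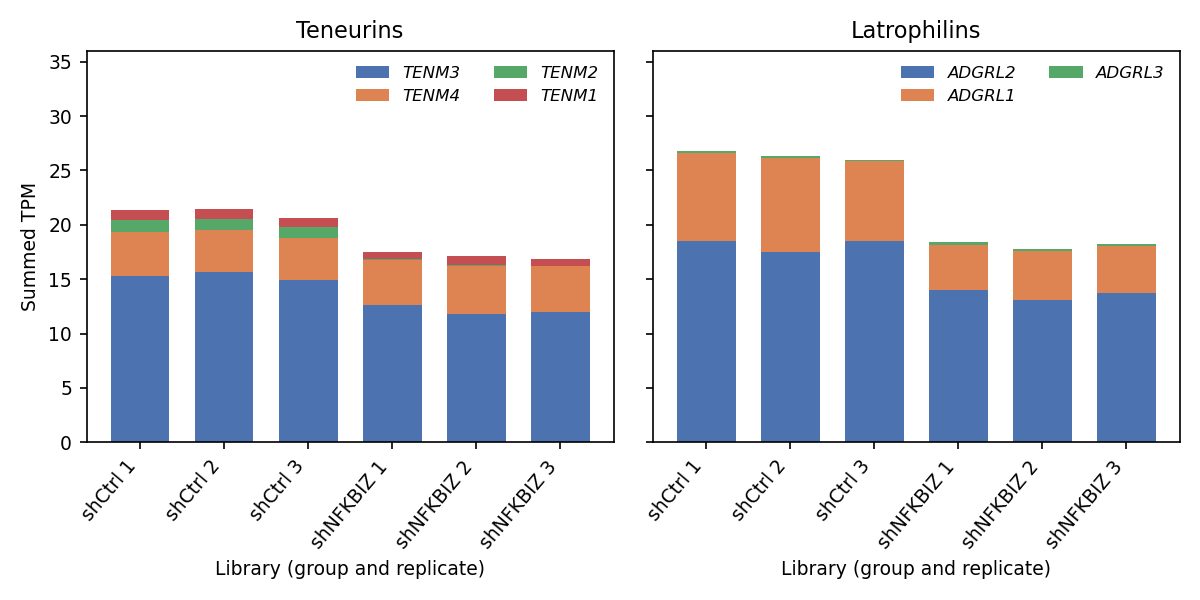
Summed TPM of the 4 teneurins (left) and the 3 latrophilins (right) in each of the 6 libraries, with 1 coloured segment per gene. The teneurin sum is 20.6 to 21.4 TPM in shCtrl and 16.8 to 17.5 TPM in shNFKBIZ libraries, and the latrophilin sum 26.0 to 26.8 and 17.8 to 18.4 TPM.

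The latrophilins are the receptors that teneurins bind. ADGRL1 (chromosome 19, 14147743 to 14206187, minus strand), first known as the receptor of a spider toxin, had 426, 470 and 360 exon reads under shCtrl and 208, 218 and 219 under shNFKBIZ. The groups were well apart. ADGRL1 fell by 0.97 on the log2 scale (SE 0.0837, adjusted P 1.17e-09), which was 1.96-fold and thus just short of the fold threshold. Without shCtrl replicate 3, the lowest shCtrl library, its log2 change was -1.045, past that threshold. Junction reads were 104, 98 and 78 in shCtrl and 50, 47 and 54 in shNFKBIZ cells.

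ADGRL2 (chromosome 1, 81306147 to 81993932, plus strand), the most abundant of the 10 genes and a postsynaptic latrophilin of the hippocampus, had 2782, 2716 and 2584 exon reads under shCtrl and 1981, 1825 and 1969 under shNFKBIZ. All shNFKBIZ libraries were below all shCtrl libraries. ADGRL2 fell to 70.8% of the shCtrl level, with a log2 change of -0.50 (SE 0.0419, adjusted P 7.91e-10). Its junction reads were 731, 706 and 678 against 433, 481 and 488.

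ADGRL3 (chromosome 4, 61200326 to 62078335, plus strand), a latrophilin that binds FLRT3 and teneurins at excitatory synapses, was counted at 16, 16 and 11 exon reads under shCtrl and 18, 17 and 18 under shNFKBIZ. The log2 change of 0.29 (SE 0.29, adjusted P 0.396) was as large as its error, so no difference was detectable at this depth. Together the latrophilins summed to 26.3 ± 0.376 TPM in shCtrl and 18.1 ± 0.308 TPM in shNFKBIZ cells (SD, n = 3 each). ADGRL2 supplied 69.0% ± 2.35 and 75.0% ± 1.17 of that sum (SD, n = 3 each).

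Among the FLRT and UNC5 genes the direction differed. FLRT2 (chromosome 14, 85530144 to 85654428, plus strand), a latrophilin ligand that also repels UNC5-bearing axons, had 1780, 1872 and 1869 exon reads under shCtrl and 2441, 2226 and 2430 under shNFKBIZ. All shNFKBIZ libraries were higher. FLRT2 rose 1.27-fold, with a log2 change of 0.35 (SE 0.0462, adjusted P 1.04e-06). UNC5B (chromosome 10, 71212570 to 71302864, plus strand), a netrin receptor of blood vessels and neurons, had 16, 14 and 15 exon reads under shCtrl and 19, 22 and 14 under shNFKBIZ. Its log2 change was 0.27 (SE 0.292, adjusted P 0.425), and the groups overlapped. FLRT3 (chromosome 20, 14322985 to 14337614, minus strand), the other FLRT protein examined, was not tested.

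The bases before the annotated start were looked up for the members whose exon reads moved, since IκBζ acts at promoters together with NF-κB and STAT factors. RefSeq (GRCh38.p14) gave 21 windows for 8 of the 10 genes, with no entry for ADGRL1 and UNC5B. The 250 bases before 1 start each of TENM2, the lowest in fold, TENM3 and ADGRL2, which fell less, and FLRT2, which rose, are shown 5′ to 3′ on the strand of the gene, all from the plus strand of the chromosome. Those of TENM2 and ADGRL2 precede starts inside the gene spans given above, those of TENM3 and FLRT2 the start of the span. Which start these cells use was not tested. Capitals mark a match to the NF-κB (κB) consensus.
TENM2, chr5:167754679-167754928: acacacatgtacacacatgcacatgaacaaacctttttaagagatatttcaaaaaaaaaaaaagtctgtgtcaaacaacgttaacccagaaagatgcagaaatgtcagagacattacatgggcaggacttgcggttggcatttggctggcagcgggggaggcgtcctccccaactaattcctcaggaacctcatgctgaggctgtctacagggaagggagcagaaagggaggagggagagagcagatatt
TENM3, chr4:182143713-182143962: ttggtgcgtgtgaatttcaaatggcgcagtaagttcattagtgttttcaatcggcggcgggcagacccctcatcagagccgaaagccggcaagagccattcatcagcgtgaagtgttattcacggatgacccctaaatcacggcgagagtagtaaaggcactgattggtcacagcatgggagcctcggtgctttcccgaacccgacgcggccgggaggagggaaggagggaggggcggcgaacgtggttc
ADGRL2, chr1:81800126-81800375: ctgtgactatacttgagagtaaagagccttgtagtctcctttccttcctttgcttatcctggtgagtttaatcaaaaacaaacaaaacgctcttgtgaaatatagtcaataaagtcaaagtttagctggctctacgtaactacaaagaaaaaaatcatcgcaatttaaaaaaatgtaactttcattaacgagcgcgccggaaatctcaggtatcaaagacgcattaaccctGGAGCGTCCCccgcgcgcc
FLRT2, chr14:85529894-85530143: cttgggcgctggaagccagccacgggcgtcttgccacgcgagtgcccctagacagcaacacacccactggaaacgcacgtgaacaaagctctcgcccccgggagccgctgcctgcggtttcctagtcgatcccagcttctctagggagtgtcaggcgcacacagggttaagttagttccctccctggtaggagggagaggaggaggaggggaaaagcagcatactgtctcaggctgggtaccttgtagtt
Searched on both strands, the κB consensus matched 9.96% of all 35116 RefSeq windows of that length. It matched 3 of the 8 ADGRL2 windows, of which 2 overlap and share the match shown in capitals (81800357 to 81800366), and 1 window of ADGRL3, and no window of the teneurins, FLRT2 or FLRT3. The STAT-type motif TTCNNNGAA and the AP-1 motif TGANTCA each matched 6.57% of all windows, and neither matched a window of the 10 genes. The GC content was 46.4% in the TENM2 window shown, 56.8% for TENM3, 40.4% for ADGRL2 and 60.4% for FLRT2, beside a median of 58.0% over all windows. The second TENM2 window of RefSeq is not shown, because GENCODE release 44 places the base after it at the start of exon 2 of a TENM2 transcript. It lies 94181 bases from the nearest transcript start of that release, but is counted above. Also counted are ADGRL2 windows 444, 1455 and 2275 bases from the nearest such start, the last of them among the 3 with a match. These matches describe letters only. No binding was measured here.

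Intron reads were then compared, because they can move apart from exon reads. Of the 12119 genes tested in intron reads, 3.89% were past the threshold towards lower reads, 19.5% were lower and 19.3% higher at the adjusted P alone. Of the 7 members other than TENM2 that could be tested, TENM1 was past the threshold, towards lower reads. At the adjusted P alone, TENM1, TENM3 and ADGRL1 were lower and TENM4 and FLRT2 were higher. FLRT3 had no intron read and UNC5B had 1 to 3 per library. As with the exon reads, these counts use the contrast that named the genes, and nothing is read from them.

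TENM1 was the member in which the read types differed most. Its intron reads were 231, 241 and 216 in shCtrl and 97, 92 and 88 in shNFKBIZ cells, without overlap. The intron log2 change was -1.40 (SE 0.105, adjusted P 1.06e-13), or 37.9% of the shCtrl level, against -0.38 in exon reads. Junction reads of TENM1 numbered 20, 24 and 19 in shCtrl and 15, 16 and 15 in shNFKBIZ cells. The exon change exceeded the intron change by 1.04 on the log2 scale (SE 0.193, adjusted P 8.23e-06 for the interaction of read type and group). Intron reads made up 76.1% ± 1.23 of all TENM1 reads in shCtrl and 62.3% ± 2.92 in shNFKBIZ cells (SD, n = 3 each), the highest share among the 10 genes in both groups. Counted over exon and intron reads together, TENM1 had a log2 change of -1.05 (adjusted P 8.28e-09).

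TENM4 moved the other way. Its intron reads were 196, 196 and 204 in shCtrl and 307, 320 and 322 in shNFKBIZ cells. They rose 1.5-fold, with a log2 change of 0.58 (SE 0.0831, adjusted P 5.32e-07), while its exon value was 0.03 and its junction reads were 63, 63 and 69 against 54, 69 and 66. The difference between the exon and the intron change was -0.54 (SE 0.105, adjusted P 2.12e-05). Intron reads were 33.5% ± 1.86 of TENM4 reads in shCtrl and 43.7% ± 0.424 in shNFKBIZ cells (SD, n = 3 each).

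**Figure D3:**
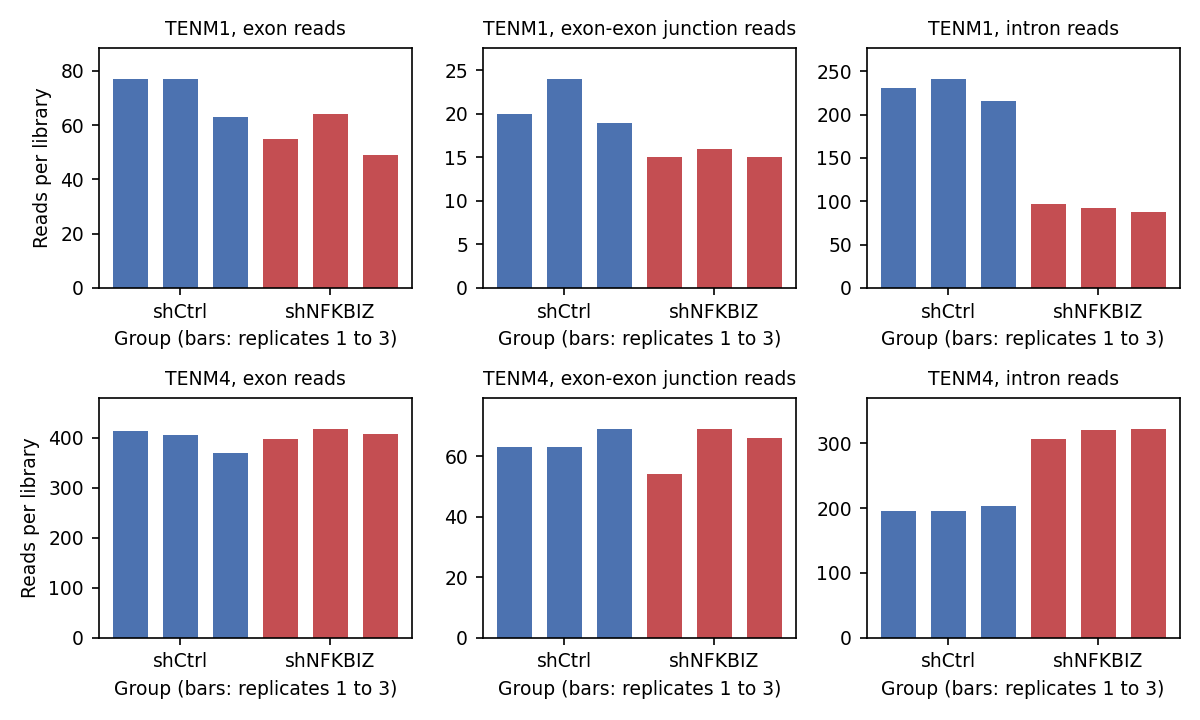
Exon, exon-exon junction and intron reads of TENM1 (top) and TENM4 (bottom) in each library, 1 bar per replicate, not scaled for depth. TENM1 intron reads are 216 to 241 in shCtrl and 88 to 97 in shNFKBIZ libraries, and TENM4 intron reads 196 to 204 and 307 to 322, while the exon reads of both genes overlap between the groups.

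ADGRL2 fell in exon reads, whereas its intron reads overlapped, with 230, 212 and 196 in shCtrl and 225, 242 and 269 in shNFKBIZ cells. The intron log2 change was 0.12 (SE 0.091, adjusted P 0.33). The exon change was lower than the intron change by -0.60 on the log2 scale (SE 0.0918, adjusted P 6.72e-08). The intron share of ADGRL2 reads was 7.31% ± 0.299 in shCtrl and 11.3% ± 0.973 in shNFKBIZ cells (SD, n = 3 each).

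FLRT2 rose in both read types. Its intron reads were 1436, 1431 and 1487 in shCtrl and 2207, 2316 and 2250 in shNFKBIZ cells, a log2 change of 0.55 (SE 0.0523, adjusted P 6.65e-11). The exon change was smaller than this by 0.19 (exon minus intron -0.19, SE 0.0615, adjusted P 0.0146). In all, the exon and intron changes differed at an adjusted P of at most 0.05 in 4 of the 7 members tested other than TENM2, namely TENM1, TENM4, ADGRL2 and FLRT2, beside 28.9% of the 11025 genes tested in both.

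TENM3 and ADGRL1 fell in introns as well. TENM3 had 118, 105 and 128 intron reads in shCtrl and 96, 92 and 88 in shNFKBIZ cells, with a log2 change of -0.44 (SE 0.126, adjusted P 0.00571). ADGRL1 had 46, 66 and 44 against 29, 43 and 33, with a log2 change of -0.66 (SE 0.194, adjusted P 0.00654). Both intron calls were lost with DESeq2 (adjusted P 0.0539 for TENM3 and 0.065 for ADGRL1), and that of ADGRL1 also without shCtrl replicate 2 (adjusted P 0.0844). For neither gene was a difference between exon and intron change detected (adjusted P 0.89 for TENM3 and 0.287 for ADGRL1). ADGRL3 intron reads were 10, 16 and 10 in shCtrl and 18, 12 and 6 in shNFKBIZ cells, with a log2 change of -0.09 (SE 0.372, adjusted P 0.878).

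**Figure D4:**
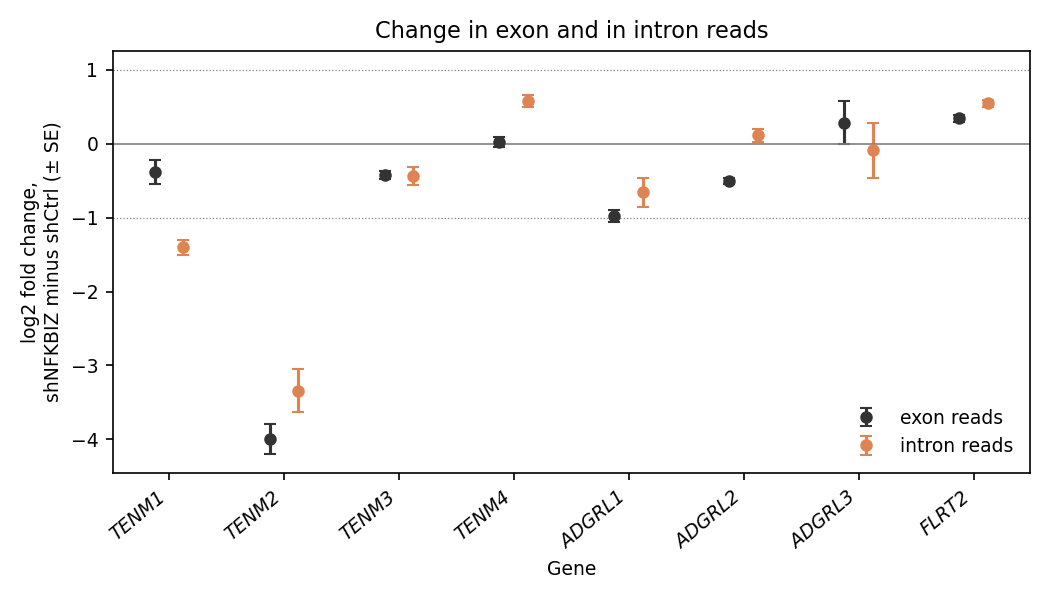
Log2 change (shNFKBIZ minus shCtrl) with its SE in exon reads (black) and intron reads (orange) for the 8 genes with enough reads of both; dotted lines mark a 2-fold change. TENM2 lies at -4.00 and -3.34, TENM1 has the lower value in introns (-1.40 against -0.38), and TENM4, ADGRL2 and FLRT2 have the higher value in introns.

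The counting did not use the strand of a read, so reads of genes that overlap a member on the opposite strand cannot be separated from it by strand. TENM1 overlaps STAG2, a cohesin subunit gene on the plus strand, over 46.8 kb. STAG2 had 193, 205 and 209 exon reads under shCtrl and 209, 212 and 199 under shNFKBIZ (log2 change 0.02, SE 0.0925, adjusted P 0.89). Its intron reads, with a log2 change of -0.18 (SE 0.172, adjusted P 0.427), numbered 43, 66 and 68 against 52, 54 and 60. How many of the reads assigned to either gene lie in the overlap was not tested.

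Of the antisense genes, TENM3-AS1, which overlaps TENM3 by 1.26 kb, had 36, 21 and 27 exon reads under shCtrl and 3, 4 and 4 under shNFKBIZ (log2 change -2.91, SE 0.373, adjusted P 5.51e-07), and its intron reads fell as well, from 70, 79 and 62 to 15, 18 and 31 (log2 change -1.80, SE 0.207, adjusted P 5.47e-09). In exon reads TENM3-AS1 passed the filter on low counts only through the shCtrl libraries, so that call is given as a description. ADGRL1-AS1 rose from 36, 43 and 38 to 61, 56 and 51 exon reads (log2 change 0.51, SE 0.185, adjusted P 0.0205), opposite to ADGRL1. Its intron reads, more than those of ADGRL1 itself under shNFKBIZ, rose from 46, 56 and 62 to 95, 107 and 94 (log2 change 0.76, SE 0.146, adjusted P 6.68e-05). FLRT2-AS1 had 196, 222 and 201 against 181, 158 and 180 exon reads (log2 change -0.27, SE 0.097, adjusted P 0.0197), opposite to FLRT2, and 37, 43 and 34 against 32, 27 and 20 intron reads (log2 change -0.62, SE 0.22, adjusted P 0.0245). ADGRL3-AS1 had no exon read, but its intron reads, 79, 76 and 58 against 70, 84 and 70, outnumbered those of ADGRL3 in every library (log2 change -0.02, SE 0.148, adjusted P 0.94). The part of the antisense genes in the reads assigned to the members was not tested. The 14 annotated genes that overlap TENM2 had no exon read in any library. Of these, TENM2-AS1 had 3, 1 and 2 intron reads in shCtrl and 0, 3 and 3 in shNFKBIZ cells. A second antisense lncRNA gene had 2 intron reads in the third shNFKBIZ library. TENM2 itself had 6, 5 and 4 intron reads in shNFKBIZ cells. In TENM4 the overlapping genes reached at most 3 exon reads in a library, and in ADGRL2, ADGRL3, FLRT3 and UNC5B at most 2.

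The nearest tested genes on either side of TENM2 were also lower, as were 32.8% of all genes tested at the adjusted P alone. WWC1, which encodes the Hippo pathway scaffold KIBRA and starts 27.5 kb beyond the end of TENM2 on the same strand, had 2005, 2133 and 1725 exon reads under shCtrl and 588, 553 and 567 under shNFKBIZ. Its log2 change was -1.79 (SE 0.056, adjusted P 4.03e-17), past the threshold, as were 5.12% of all genes tested towards lower reads. MAT2B, which encodes a regulatory subunit of methionine adenosyltransferase and ends 3460 kb before TENM2, had 1819, 1994 and 1852 against 1097, 1121 and 1202 exon reads (log2 change -0.74, SE 0.046, adjusted P 4.74e-12).

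The genes most like TENM2 over the 6 libraries, by Pearson correlation of log2 CPM among 11106 genes with a mean of at least 50 exon reads, were TCAF1, PTDSS1, PPP2R5D, PTX3 and CLIP1, with r of 0.9996 to 0.9999. Their log2 changes ran from -1.97 for PTX3 to -0.69 for CLIP1, all smaller in size than that of TENM2. The 6 libraries fall into 2 groups, and 950 genes had an r above 0.99, so that this likeness cannot be told apart from the split between the groups.

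The other genes of the pathway were then counted in 4 lists, 90 genes in all, of which 40 passed the filter on low counts. At the adjusted P alone 13 (32.5%) were lower and 19 (47.5%) higher, beside 32.8% and 32.5% of all genes tested. Past the threshold were 7 (17.5%), 4 lower and 3 higher, beside 8.96% of all genes tested. Of these, CBLN2, UNC5A and NTN4 had fewer than 10 exon reads in every library of 1 group and passed the filter through the other group. With at least 10 counts required in every library, 4 of 37 listed genes were past the threshold, beside 891 of 12894 genes. No excess is read from these shares. The median log2 change of the 40 genes was 0.14, beside 0.00 over all genes tested and -0.18 over the 8 members tested other than TENM2.

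Of 20 other ligands and receptors of the same complexes, 10 were tested, 8 of them higher and 2 lower (over all genes 32.5% and 32.8%). ADGRL4, an adhesion receptor of endothelial cells related to the latrophilins that lacks their teneurin-binding domain, rose from 65, 72 and 69 exon reads in shCtrl to 247, 245 and 266 in shNFKBIZ cells (log2 change 1.86, SE 0.108, adjusted P 1.5e-12). UNC5A, another netrin receptor, rose from 7, 9 and 6 to 20, 22 and 20 reads (log2 change 1.47, SE 0.32, adjusted P 0.000385). NTN4, a laminin-related netrin, fell from 23, 28 and 26 to 6, 8 and 7 reads (log2 change -1.87, SE 0.309, adjusted P 1.7e-05). UNC5A and NTN4 passed the filter on low counts only through the group where each was higher, so their calls are given as a description. The most abundant were FGFR1, a growth factor receptor that FLRT proteins can bind, with 43.5 ± 0.756 and 56.8 ± 1.66 TPM (SD, n = 3 each), and RGMB, a ligand of the netrin receptor family member neogenin, with 33.9 ± 0.885 and 52.2 ± 1.56 TPM (SD, n = 3 each). Both rose in exon reads (log2 change 0.30, adjusted P 9.28e-08, and 0.54, adjusted P 4.52e-10). ADGRL4 thus moved in the direction opposite to ADGRL1 and ADGRL2.

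Of 10 binding partners and signalling genes inside the cell, 9 were tested, 5 of them higher and 3 lower (over all genes 32.5% and 32.8%). ARHGEF12, a RhoA exchange factor that acts below the G12 and G13 proteins, fell from 4621, 4779 and 4298 to 1711, 1744 and 1629 exon reads (log2 change -1.44, SE 0.039, adjusted P 3.15e-18). RHOA, the most abundant of the list, had 385 ± 7.46 and 341 ± 6.09 TPM (SD, n = 3 each) and a log2 change of -0.26 (SE 0.0354, adjusted P 1.5e-06). FURIN, a protease of the secretory pathway that cleaves teneurins, had 88.7 ± 3.01 and 94.8 ± 0.463 TPM (SD, n = 3 each) and a log2 change of 0.01 (SE 0.0397, adjusted P 0.804).

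Of 28 other adhesion G protein-coupled receptors, 10 were tested, 4 of them higher and 2 lower (over all genes 32.5% and 32.8%). ADGRG6, a receptor required for myelination of peripheral nerves, fell from 1465, 1551 and 1340 to 520, 473 and 520 exon reads (log2 change -1.54, SE 0.0545, adjusted P 3.2e-16). The most abundant were ADGRE5 (CD97), with a log2 change of 0.24 (SE 0.0434, adjusted P 5.61e-05), and ADGRB1, a receptor for apoptotic cells, with 0.81 (SE 0.0794, adjusted P 2.54e-06). Beside these values, ADGRL1 stood at -0.97 and ADGRL2 at -0.50.

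Of 32 genes of other synaptic adhesion families, 11 were tested, 6 of them lower and 2 higher (over all genes 32.8% and 32.5%). CBLN2, a secreted synapse organiser, rose from 3, 7 and 6 to 37, 32 and 32 exon reads (log2 change 2.62, SE 0.325, adjusted P 3.45e-07). CBLN2 passed the filter on low counts only through the shNFKBIZ libraries, so its call is given as a description. SLITRK4, a leucine-rich repeat adhesion protein like the FLRT proteins, fell from 275, 306 and 291 to 103, 115 and 102 reads (log2 change -1.46, SE 0.0982, adjusted P 1.91e-11). The most abundant were PTPRF, a receptor phosphatase, with a log2 change of -0.35 (SE 0.042, adjusted P 7.13e-07), and CLSTN1, a calsyntenin, with 0.45 (SE 0.0355, adjusted P 3.12e-10). None of the 40 listed genes tested reached the fold of TENM2 in either direction. Since TENM2 was chosen for its fall and was the 9th lowest of 13843 genes, nothing is read from this.

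**Figure D5:**
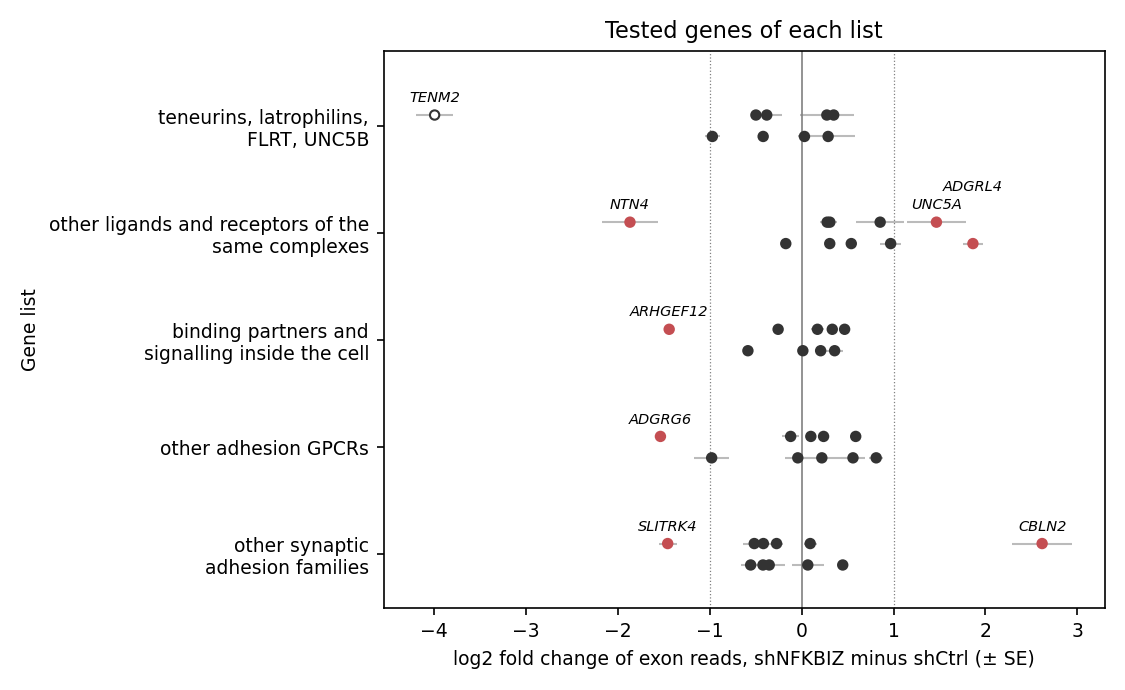
Log2 change of exon reads (shNFKBIZ minus shCtrl) with its SE for the tested genes of the 5 lists, 1 point per gene. Red points with names are past the threshold, the open point is TENM2, for which no test is given, and dotted lines mark a 2-fold change. CBLN2, UNC5A and NTN4 passed the filter on low counts only through the group where each was higher. TENM2, chosen for its fall, lies at -4.00. The other 8 genes of its own list lie between -0.97 and 0.35. The values nearest to TENM2 among the other lists are those of NTN4 (-1.87) and ADGRG6 (-1.54).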

How the data were processed

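RNA-seq libraries of shCtrl and shNFKBIZ LOX-IMVI cells (3 each) were grouped by their titles. The authors mapped reads to hg38 (Ensembl 109) in CLC Genomics Workbench 24 with default settings (up to 10 hits per read, strand not used) and deposited whole-number counts per gene of total exon, intron and junction reads. TPM were recomputed from exon counts and exon length and equalled the deposited values to within 4.98e-07. The tables also held unique reads. Total reads include reads that map to several places. Gene identities and coordinates are those of the files.

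Exon counts were filtered (filterByExpr), scaled by TMM factors and compared with edgeR 4.0.16 (quasi-likelihood test, robust, two-sided, R 4.3.3), adjusted over all genes tested. The SE is the size of the log2 fold change over the square root of F. Intron counts were fitted alike with their own factors, and the exon against intron difference as an interaction with library blocks. No P value is given for TENM2, and counts of members in the report leave it out. Of the lists, 1 partner gene and 1 marker are not reported here and were left out of the counts of their lists. The members and lists were chosen with earlier results of these data known. Beyond the 10 members, the genes named were those past the threshold in each list (at most 4) and its 2 most abundant, genes overlapping a member, the tested neighbours of TENM2 and its 5 most similar genes. Replicates were independent experiments according to the study, but all shared 1 hairpin per group. Alternatives were RLE factors, library size alone, stricter and no filters, other tests (likelihood ratio, DESeq2 1.42.0), other read types, a replicate block and leaving out each library. Depths of 22264473 to 24624839 exon reads limit precision for ADGRL3, UNC5B and FLRT3. Sequences came from RefSeq.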

Additional observations from a re-analysis of the deposited data

How the results depend on the processing

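TENM2, chosen for its fall, is included in the counts of members here and lends them no support. The number of members past the threshold in exon reads, 1 (TENM2), became 6 with no limit on the fold change, 0 when at least 10 counts were required in every library, which leaves TENM2 out of the test, and 2 when exon and intron reads were counted together, where TENM1 was added. Leaving out single libraries gave 1 to 2, with ADGRL1 added without shCtrl replicate 3. In intron reads the number was 2, and 1 with at least 10 counts in every library, again because TENM2 was not tested. Of the listed partner and related genes, 7 were past the threshold, 32 with no limit on the fold change and 4 with at least 10 counts in every library, where 37 rather than 40 were tested. UNC5A was below the 2-fold limit when all gene reads were counted (0.83), and TENM4 was called there (0.26, adjusted P 0.000371). TENM1 passed in 7 of 15 alternatives, among them the count of exon and intron reads together (log2 fold change -1.05, adjusted P 8.28e-09). In the other alternatives, on exon reads alone, its log2 fold change was -0.486 to -0.29 (adjusted P from 0.0257 to 0.177). The calls of ADGRL1, ADGRL2, TENM3 and FLRT2 in exon reads held in all 15 alternatives, and those of TENM1, TENM4 and FLRT2 in intron reads in all 13. The 4 differences between exon and intron change held in all 8.

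Replicate numbers did not pair the libraries (correlations of deviations of 0.0207, 0.0561 and 0.0288 for numbers 1, 2 and 3). With a replicate block and TENM2 left out, no member was past the threshold in exon reads and TENM1 alone was in intron reads. Of the listed genes, 7 were past it there. Low counts limit ADGRL3, UNC5B and FLRT3, and the part of any cell state shift in these values was not tested.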
